A study of Homo sapiens with 6 samples.

Results

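The genes examined here encode the proteasome, the multi-subunit protease that degrades ubiquitin-tagged proteins, and they were followed in MM.1S cells, an established human multiple myeloma line, 3 days after knockdown of PRKCN. All genes named PSMA to PSMG with a number were taken from the deposited count table, which gave 48 of the 21850 listed genes. They fall into 16 core genes (PSMA, PSMB1 to PSMB7 and PSMB11), 7 immunoproteasome and activator genes (PSMB8 to PSMB10 and PSME), 20 cap genes (PSMC and PSMD), 4 assembly genes (PSMG) and PSMF1. The shNT group was wild-type MM.1S infected with a scramble hairpin (shscramble), and the shPRKCN group was MM.1S infected with a PRKCN shRNA, whose genotype is labelled PRKCN knockdown. Both groups are the same line, received a lentiviral hairpin and were sequenced as total RNA, with 3 libraries each. The labels do not say whether the libraries came from separate cultures, so p-values measure the spread between these libraries, which may be technical. All shPRKCN libraries share the same label of a PRKCN shRNA, which does not name the hairpin. Effects of the hairpin other than on PRKCN were not tested, and 1 line stands for myeloma here.

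The core particle is a barrel of stacked rings. The PSMA subunits form the outer α rings and gate the entry, and the PSMB subunits form the inner β rings, in which PSMB5, PSMB6 and PSMB7 carry the chymotrypsin-like, caspase-like and trypsin-like active sites. Interferon-γ induces PSMB8, PSMB9 and PSMB10, which take the places of PSMB5, PSMB6 and PSMB7 in newly built cores and give the immunoproteasome, a form that favors peptides for MHC class I. The cap holds the PSMC ATPases, which unfold substrates, and the PSMD subunits, which bind, deubiquitinate and position them, while PSME proteins are alternative activators. Plasma cells and myeloma cells secrete large amounts of immunoglobulin, and proteasome inhibitors such as bortezomib, which acts mainly on PSMB5, are standard myeloma drugs.

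Short promoter stretches are printed to show the interferon and NFE2L1 elements near transcript starts of members whose levels are compared below. The RefSeq promoter table (GRCh38.p14, windows of 300 bases around a transcript start) held 51 windows for 42 of the 48 genes. The interferon-stimulated response element was searched on both strands as GAAA followed by 2 bases of any kind and GAAA again, and was present in windows of 7 genes, PSMA4, PSMB4, PSMB8, PSMB10, PSME1, PSME2 and PSMG4. That is 13.7% of the member windows, against 3.57% of all 35116 windows in the table. The following stretches are written 5′ to 3′ on the strand of the gene, with the matched letters in capitals.
PSMB8, chr6:32844032-32844061 (minus strand): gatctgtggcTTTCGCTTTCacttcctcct
PSMB10, chr16:67936852-67936881 (minus strand): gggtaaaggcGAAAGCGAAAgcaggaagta
PSME1, chr14:24136189-24136218 (plus strand): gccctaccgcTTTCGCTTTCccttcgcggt
PSME2, chr14:24146619-24146648 (minus strand): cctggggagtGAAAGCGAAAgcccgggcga
PSMG4, chr6:3258904-3258933 (plus strand): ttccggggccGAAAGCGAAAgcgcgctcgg
In PSMB10, PSME2 and PSMG4 the letters lie on the strand of the gene, and in PSMB8 and PSME1 on the other strand. The PSMB8 and PSMG4 matches come from windows of transcript starts inside the gene. The PSMB8 window at the outer start of the gene, chr6:32844630-32844929, did not hold these letters. PSMG4 runs from 3254404 to 3268049, and its matched window was chr6:3258697-3258996. The window of PSMB9 did not hold these letters. The core of the element bound by NFE2L1, the transcription factor that drives proteasome genes when proteasome activity falls, was searched as TGACNNNGC on both strands and was present in windows of 15 members, 29.4% of the member windows against 13.3% of all windows. Those of PSMA4 and PSMD3 are shown as examples with a TGACTC start, and that of PSMA4 comes from a transcript start inside the gene.
PSMA4, chr15:78540650-78540679 (plus strand): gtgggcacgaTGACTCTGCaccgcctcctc
PSMD3, chr17:39980760-39980789 (plus strand): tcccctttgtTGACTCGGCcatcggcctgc
The gamma-activated site, TTCNNNGAA, reads the same on both strands and was present in 15.7% of member and 7.66% of all windows. The 8 members with it were PSMA2, PSMA8, PSMB5, PSMB8, PSMC4, PSMD2, PSMD3 and PSME3. The CCAAT box, as CCAAT on both strands, was in 39.2% of member and 34.6% of all windows, and GGG followed by 5 bases of any kind and CC, for NF-κB, on both strands, in 64.7% and 58.7%. A match is only a run of letters in this window.

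Library totals ran from 35625564 to 37730003 counts, so depth differed little between the groups, and no library repeated another. PRKCN is listed under its current symbol, PRKD3. It had 1272, 1298 and 1216 CPM in the shNT libraries and 535, 491 and 527 CPM in the shPRKCN libraries, a log2 fold change of −1.29 ± 0.034 (SE, adjusted p = 8.2e-43), so that every shPRKCN library was below every shNT library. Of 8 plasma cell markers, all were detected, with JCHAIN at 5358 CPM in shNT and 5412 CPM in shPRKCN cells on average. At an adjusted p under 0.05, 1 of the 8 rose and 5 fell, which is 75% against 54.2% of all genes tested. SDC1 rose (log2 fold change 0.18) and PRDM1 and MZB1 fell (−0.54 and −0.23). TNFRSF17, XBP1 and SLAMF7 fell past the fold limit given below, which 16.7% of all genes tested passed. CD14, CSF1R and LYZ of monocytes, MS4A1 and PAX5 of B cells and CD3D had at most 9 counts in any library. The T cell gene CD3E was measured at 10.9 ± 0.493 CPM in shNT and 28.8 ± 2.03 CPM in shPRKCN cells (SD, n = 3), and its part in the results was not tested. CD2, another T cell gene, had 7 to 29 counts in a library (log2 fold change −0.39, adjusted p = 0.50).

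The proteasome genes changed little in shPRKCN cells. The fold limit used by the study, a log2 fold change beyond 0.58 with an adjusted p under 0.05, was passed by 0 of the 46 tested members in edgeR's quasi-likelihood test, against 16.7% of the 13971 genes tested, 6.15% higher and 10.6% lower. Without an adjusted p, by an unadjusted p under 0.05 and the same fold limit, the number was also 0, and it was 0 with DESeq2. With no fold limit 25 members had an unadjusted p under 0.05, and 22 had an adjusted p under 0.05, 10 higher and 12 lower. That is 47.8% of the members, below the background of 54.2% over all genes tested, which was 26.5% higher and 27.8% lower. The members are deeply counted, with at least 502 counts in every library for each of the 46, so the background was also taken over the 7748 tested genes with a mean count at least as high as the lowest member, a choice made after seeing the data. There 66.1% had an adjusted p under 0.05, 33.8% higher and 32.4% lower, and 10.9% also passed the fold limit, 3.34% higher and 7.55% lower. The median log2 fold change of the members was −0.034, against 0.0012 over all genes tested, and the median size of the change without regard to sign was 0.096, against 0.25 over all genes tested and 0.18 over the deeply counted ones. The widest change of any member, 0.38 for PSME3, was exceeded in size by 4751 of the 13971 genes tested and by 1746 of the 7748 deeply counted ones. The split depends on the scaling, since upper-quartile scaling gave 13 higher and 10 lower and library totals alone gave 13 higher and 9 lower.

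**Figure D1:**
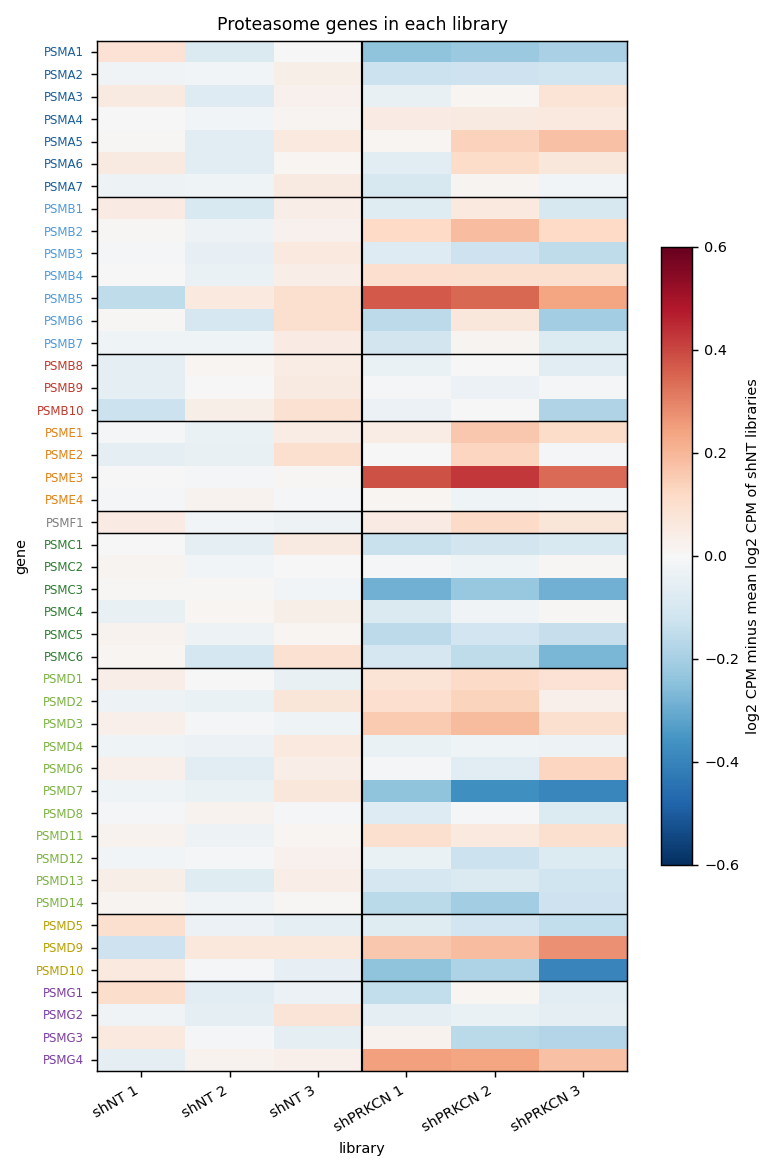
Each row is 1 of the 46 tested proteasome genes and each column 1 library; color gives log2 CPM minus the mean log2 CPM of the 3 shNT libraries, and black lines separate subunit families. PSME3 and PSMB5 stand out as higher and PSMD7, PSMD10, PSMC3 and PSMA1 as lower in all 3 shPRKCN libraries.

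The shPRKCN libraries lay entirely above or below the shNT libraries in 24 members, 12 in each direction. This is 52.2% of the members, and the background is 58.8% over all genes tested, 29% higher and 29.8% lower, or 68.9% over the deeply counted genes, 35.4% higher and 33.5% lower. Summed as reads, the 48 genes made up 0.468% ± 0.00838 of all counts in shNT and 0.477% ± 0.00171 in shPRKCN cells (SD, n = 3), and the ranges of the groups overlap. The spread between replicates was small, with a median SD of 0.047 on the log2 scale over the members and a maximum of 0.12 for PSMB6. In 17 fits, the main one and 16 alternatives, 11 of the 22 members kept an adjusted p under 0.05 in every fit. These were PSMB2, PSMB5, PSMD3 and PSME3, which rose, and PSMA1, PSMA2, PSMC3, PSMC5, PSMD7, PSMD10 and PSMD14, which fell. The counts are relative to each library's total, so a change of all RNA per cell would not be seen, and in bulk RNA fewer cells of a kind and less RNA per cell cannot be told apart.

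**Figure D2:**
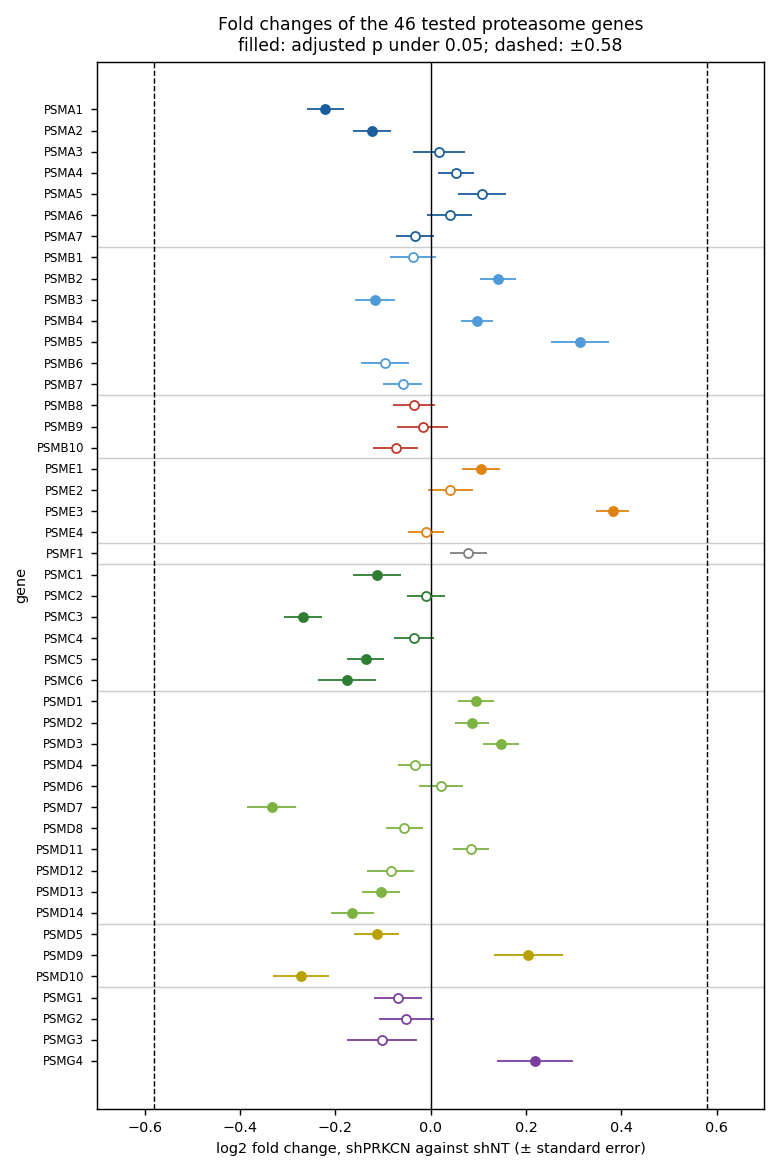
Points give the log2 fold change (shPRKCN against shNT) of each tested member on the horizontal axis and bars its standard error; filled points had an adjusted p under 0.05, and dashed lines mark the fold limit of 0.58. All 46 points lie inside the dashed lines, between −0.33 and 0.38.

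In the core, 14 of the 16 genes were tested. PSMA8, a testis-type α subunit, had 1 count in shPRKCN 1 and in shPRKCN 3 and none elsewhere, and PSMB11, the β subunit of the thymus proteasome, had 1 count in shNT 2 and none elsewhere, so both were at or under a floor of 3 counts in every library. Of the 14, 3 rose and 3 fell, 42.9% against 54.2% of all genes tested and 66.1% of the deeply counted ones, and the median log2 fold change was −0.0081. Among the α subunits, PSMA1 and PSMA2 fell and the other 5 did not pass the test. PSMA1 had 177, 156 and 166 CPM in the shNT libraries and 140.2, 142 and 145 CPM in the shPRKCN libraries. All shPRKCN libraries were lower, with a log2 fold change of −0.22 ± 0.039 (SE, adjusted p = 1.8e-06). PSMA2 had 121, 122 and 126 CPM in the shNT libraries and 113, 113 and 113 CPM in the shPRKCN libraries, again with no overlap, and a log2 fold change of −0.12 ± 0.039 (SE, adjusted p = 0.0059). Overlapping GENCODE transcripts share exonic bases with both, AC018523.2 with 24.7% of those of PSMA1 and AC010132.2 with 19.5% of those of PSMA2, so these reads are uncertain. PSMA3, PSMA4, PSMA5, PSMA6 and PSMA7 had log2 fold changes from −0.034 to 0.11, with adjusted p values from 0.067 to 0.81. PSMA5 passed the test without shNT 3 (adjusted p = 0.035) and without shPRKCN 1 (0.018), and in 4 of 17 fits in all, with library totals alone among them (0.033).

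Among the β subunits of the constitutive core, PSMB2, PSMB4 and PSMB5 rose and PSMB3 fell, while PSMB1, PSMB6 and PSMB7 did not pass the test. PSMB5, the chymotrypsin-like subunit, had the largest change of the core. It had 25.4, 29.4 and 30.2 CPM in the shNT libraries and 36.5, 35.9 and 33.3 CPM in the shPRKCN libraries. The groups did not overlap, the lowest shNT value was in shNT 1, and the log2 fold change of 0.31 ± 0.062 (SE, adjusted p = 1.3e-05) amounts to 24.3% more than in shNT cells. With single libraries left out the log2 fold change of PSMB5 ran from 0.24 to 0.36. PSMB2, which has no active site, had 151, 147 and 153 CPM in the shNT libraries and 164, 171 and 164 CPM in the shPRKCN libraries, a log2 fold change of 0.14 ± 0.037 (SE, adjusted p = 0.00098). PSMB4, the most abundant member per length, changed by 0.097 (adjusted p = 0.012) and PSMB3 by −0.12 (adjusted p = 0.016). The PSMB3 call held in 13 of 17 fits, with adjusted p values of 0.11 without shNT 3 and 0.11 without shPRKCN 3, and of 0.092 in limma on log2(FPKM + 1). The PSMB4 call held in 16 of 17 fits, with an adjusted p of 0.072 without shNT 2. The other active-site subunits did not pass the test. PSMB6 had 83, 77 and 88.3 CPM in the shNT libraries and 74.1, 86.6 and 71.6 CPM in the shPRKCN libraries, with overlapping groups and a log2 fold change of −0.096 ± 0.05 (SE, adjusted p = 0.097). It varied most between replicates, and passed the test as lower without shNT 2 (log2 fold change −0.14, adjusted p = 0.021) or without shPRKCN 2 (−0.18, adjusted p = 0.0014). PSMB7 had 108, 108 and 114 CPM in the shNT libraries and 102, 111 and 104 CPM in the shPRKCN libraries, also overlapping, and a log2 fold change of −0.059 ± 0.041 (SE, adjusted p = 0.23).

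Of the 3 immunosubunits, 0 passed the test in edgeR, DESeq2 or limma with all libraries, and 0 had an unadjusted p under 0.05 in edgeR. PSMB8 and PSMB10 carry the interferon element printed above, PSMB8 only in the window of a transcript start inside the gene. PSMB8, on chromosome 6 from 32840717 to 32844679, had 78.8, 82.5 and 84.6 CPM in the shNT libraries and 79.7, 82.2 and 78.2 CPM in the shPRKCN libraries. The groups overlapped, and the log2 fold change of −0.035 ± 0.044 (SE, adjusted p = 0.52) has an approximate 95% interval from −0.12 to 0.051. PSMB9, on chromosome 6 from 32854192 to 32859851, had 38.3, 39.6 and 41.2 CPM in the shNT libraries and 39.5, 38.7 and 39.5 CPM in the shPRKCN libraries, with overlap, a log2 fold change of −0.017 ± 0.054 (SE, adjusted p = 0.81) and an interval from −0.12 to 0.089. PSMB10, on chromosome 16 from 67934506 to 67936850, had 76.7, 86 and 89.3 CPM in the shNT libraries and 81.9, 83.7 and 74 CPM in the shPRKCN libraries, with overlap, a log2 fold change of −0.074 ± 0.048 (SE, adjusted p = 0.19) and an interval from −0.17 to 0.02. All 3 intervals lie within the fold limit of 0.58, and PSME1 and PSMB5, by comparison, rose by 0.11 and 0.31. PSMB10 shares 34.8% of its exonic bases with AC040162.1 on the same strand. Without shNT 1, the lowest shNT library, PSMB10 passed the test as lower, with a log2 fold change of −0.14 and an adjusted p of 0.025. Exons of PSMB8 overlap those of its antisense gene PSMB8-AS1 over 20.6% of the exonic bases of PSMB8 in the GENCODE annotation of GRCh38. PSMB8-AS1 fell from 18.0 to 14.1 CPM on average (log2 difference −0.36 ± 0.081, SE), and reads of both strands cannot be told apart because the strand setting of the counting is not given in the sources used here. On the same strand as PSMB9, PSMB8-AS1 also shares 5.66% of the exonic bases of PSMB9.

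The balance between each immunosubunit and the subunit it replaces was read as a log2 ratio of FPKM within each library, which is free of scaling between libraries. The ratio of PSMB8 to PSMB5 was 1.34, 1.19 and 1.19 in the shNT and 0.83, 0.90 and 0.94 in the shPRKCN libraries and did not overlap between the groups. It fell by 0.35 on average (2-sided exact permutation test, p = 0.1, the smallest that 3 libraries against 3 allow, or 0.3 adjusted over the 3 pairs). In linear terms PSMB8 stood at 2.37 times PSMB5 in shNT cells and at 1.85 times in shPRKCN cells, and the values given above show the higher PSMB5 level in the shPRKCN libraries, with PSMB8 overlapping. The ratio of PSMB9 to PSMB6 was −1.39, −1.23 and −1.37 in the shNT and −1.18, −1.43 and −1.13 in the shPRKCN libraries. These groups overlapped, and the mean difference was 0.083 with a standard error of 0.11 (exact permutation test, p = 0.5, adjusted 0.75). The ratio of PSMB10 to PSMB7 was −0.48, −0.32 and −0.34 in the shNT and −0.30, −0.40 and −0.48 in the shPRKCN libraries, with overlap and a mean difference of −0.013, standard error 0.073 (exact permutation test, p = 1, adjusted 1). Summed over the 3 pairs, the immunosubunits held 43.5% ± 1.15 of the catalytic-subunit FPKM in shNT and 43.2% ± 1.06 in shPRKCN cells (SD, n = 3), and these ranges overlap.

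**Figure D3:**
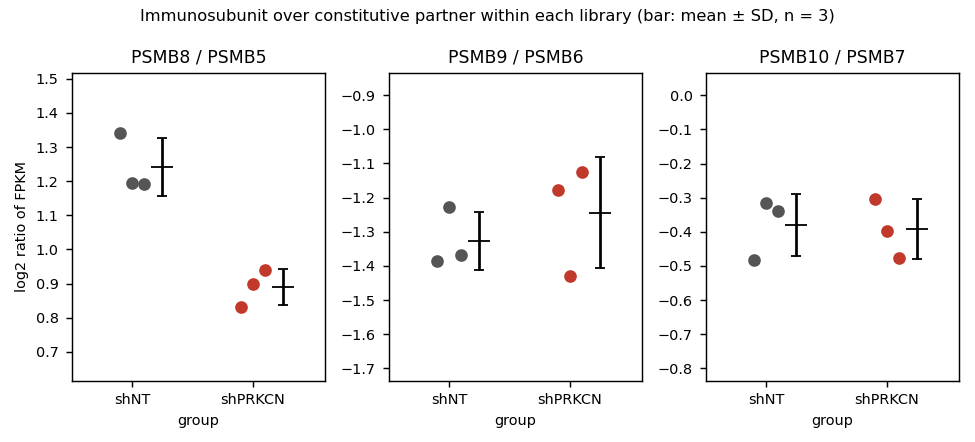
Points give the log2 ratio of FPKM of each immunosubunit to its constitutive partner in each of the 6 libraries, on vertical axes of equal length, and bars the mean ± SD of each group. Only the PSMB8 to PSMB5 ratio separates the groups, with shNT libraries from 1.19 to 1.34 and shPRKCN libraries from 0.83 to 0.94.

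In the immunoproteasome and activator group as a whole 2 of 7 genes were called, 28.6% against 54.2% of all genes tested. Of the activators, PSME3 and PSME1 rose and PSME2 and PSME4 did not pass the test. PSME3, the subunit of a nuclear activator that degrades proteins without ubiquitin, showed the largest change of the 46 members. It had 198, 196 and 199 CPM in the shNT libraries and 257, 265 and 250 CPM in the shPRKCN libraries. The groups were far apart relative to their spread, with a log2 fold change of 0.38 ± 0.035 (SE, adjusted p = 5.4e-15), which is 30.3% more than in shNT cells, and the log2 fold change stayed between 0.36 and 0.41 over all fits. Exons of PSME3 overlap those of BECN1 on the other strand over 5.82% of the exonic bases of PSME3, and BECN1 rose by 0.35 ± 0.045 (SE) on the log2 scale, so a part of the PSME3 reads cannot be assigned. PSME1 and PSME2 form the interferon-inducible activator of the immunoproteasome and lie near each other on chromosome 14 (24136194 to 24138962 and 24143365 to 24146610). PSME1 had 122, 119 and 126 CPM in the shNT libraries and 127, 137 and 132 CPM in the shPRKCN libraries, without overlap, a log2 fold change of 0.11 ± 0.04 (SE, adjusted p = 0.02). Its call was lost without some libraries, with adjusted p values of 0.062 without shNT 1, 0.085 without shNT 2 and 0.099 without shPRKCN 2. PSME2 had 73.7, 74.2 and 81.8 CPM in the shNT libraries and 76.7, 83.6 and 76.2 CPM in the shPRKCN libraries, with overlap, a log2 fold change of 0.042 ± 0.046 (SE, adjusted p = 0.47) and an interval from −0.049 to 0.13. RNF31 on the other strand shares 6.03% of the exonic bases of PSME2 and rose by 0.38 ± 0.075 (SE) on the log2 scale. PSME4, a nuclear activator linked to histone degradation, had a log2 fold change of −0.0098 (adjusted p = 0.85), and PSMF1, named as an inhibitor of the core, one of 0.079 (adjusted p = 0.076), which passed the test in 5 of 17 fits, among them upper-quartile and library-total scaling (0.046 and 0.023). Of the 7 members with the interferon element in a promoter window, PSMB4, PSME1 and PSMG4 rose and the other 4 did not pass the test. Among all genes tested 54.2% passed the test, 26.5% higher and 27.8% lower. A link between the element and these changes was not tested.

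The cap showed the most calls, with 4 of 20 genes higher and 9 lower, 65% of its members against 54.2% of all genes tested and 66.1% of the deeply counted ones, and a median log2 fold change of −0.07. Of the 6 ATPase genes, PSMC1, PSMC3, PSMC5 and PSMC6 fell and PSMC2 and PSMC4 did not pass the test. That is 66.7% of the ATPase genes, near the 66.1% of the deeply counted genes. PSMC3 fell most of them and had 123, 124 and 122 CPM in the shNT libraries and 101, 105 and 101 CPM in the shPRKCN libraries. The groups were separated by more than their spread, with a log2 fold change of −0.27 ± 0.04 (SE, adjusted p = 2.7e-08). PSMC5 had 137, 132 and 136 CPM in the shNT libraries and 121, 125 and 123 CPM in the shPRKCN libraries, also without overlap, a log2 fold change of −0.14 ± 0.039 (SE, adjusted p = 0.0019). FTSJ3 on the other strand shares 19.5% of the exonic bases of PSMC5, so a part of the PSMC5 reads cannot be assigned. FTSJ3 had 77.7 CPM in shNT and 80.4 CPM in shPRKCN cells on average. PSMC6 changed by −0.18 (adjusted p = 0.012) and PSMC1 by −0.11 (adjusted p = 0.049). The PSMC1 call held in 3 of 17 fits. With all libraries its adjusted p was 0.092 in DESeq2, 0.055, 0.068 and 0.11 with RLE, upper-quartile and library-total scaling, 0.098 with no filter and 0.12 to 0.13 in limma, and with libraries left out it was 0.096 without shNT 1, 0.19 without shNT 3, 0.14 without shPRKCN 1, 0.072 without shPRKCN 2 and 0.089 without shPRKCN 3. The PSMC6 call held in 12 of 17 fits, with an adjusted p of 0.11 without shNT 3 and 0.14 without shPRKCN 3, and of 0.054 to 0.15 in limma. In the GENCODE annotation of GRCh38, NRDE2 on the other strand shares 75.8% of the exonic bases of PSMC1, and NRDE2 had 9.06 CPM in shNT and 10.3 CPM in shPRKCN cells on average. Of the 50-base words of PSMC1, 20.3% occur in other genes, so its value is uncertain. PSMC2 and PSMC4 had log2 fold changes of −0.0098 and −0.035, with adjusted p values of 0.86 and 0.50, and the sign of PSMC2 turned with library totals alone, in limma and without shPRKCN 2.

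Of the 11 PSMD genes that encode cap subunits, PSMD1, PSMD2 and PSMD3 rose and PSMD7, PSMD13 and PSMD14 fell. That is 54.5% of the 11, near the 54.2% of all genes tested and below the 66.1% of the deeply counted ones. PSMD7 and PSMD14 form a pair in the lid, in which PSMD14 is the deubiquitinase that removes ubiquitin from substrates. PSMD7 fell most of all members and had 57, 56.5 and 60.9 CPM in the shNT libraries and 49.1, 45 and 44.3 CPM in the shPRKCN libraries. Every shPRKCN library was lower, the log2 fold change of −0.33 ± 0.051 (SE, adjusted p = 6e-08) amounts to 20.6% less, and it ran from −0.38 to −0.30 with single libraries left out. An antisense transcript of the GENCODE annotation of GRCh38, AC009120.2, shares 30.7% of the exonic bases of PSMD7. PSMD14 had 82.3, 80 and 81.6 CPM in the shNT libraries and 72.7, 70.3 and 74.7 CPM in the shPRKCN libraries, without overlap, a log2 fold change of −0.16 ± 0.044 (SE, adjusted p = 0.0011). PSMD3, a scaffold subunit of the lid, had 167, 163 and 160.3 CPM in the shNT libraries and 182, 186 and 174 CPM in the shPRKCN libraries, all higher after knockdown, a log2 fold change of 0.15 ± 0.037 (SE, adjusted p = 0.00052). PSMD1 and PSMD2, the large subunits of the base that dock ubiquitin receptors, changed by 0.096 and 0.086 (adjusted p = 0.028 and 0.034), and PSMD13 by −0.10 (adjusted p = 0.024). These calls held in 14, 10 and 9 of 17 fits. The adjusted p was 0.12 without shNT 3 and 0.058 without shPRKCN 2 for PSMD1, 0.17 without shNT 1, 0.14 without shNT 2, 0.092 without shPRKCN 1 and 0.12 without shPRKCN 2 for PSMD2 and 0.12 without shNT 1, 0.097 without shNT 3, 0.057 without shPRKCN 1 and 0.12 without shPRKCN 3 for PSMD13. With all libraries PSMD2 was lost in limma on log2(FPKM + 1) (0.087) and PSMD13 with library totals alone (0.067) and in limma (0.055 to 0.12). SIRT3 on the other strand shares 6.63% of the exonic bases of PSMD13 and rose by 0.24 ± 0.082 (SE) on the log2 scale. PSMD4, a ubiquitin receptor, and PSMD6, PSMD8, PSMD11 and PSMD12 had log2 fold changes from −0.084 to 0.084 and did not pass the test. PSMD11 was just outside it (adjusted p = 0.056) and passed it as higher in 8 of 17 fits, among them DESeq2 (0.04), RLE, upper-quartile and library-total scaling (0.048, 0.034 and 0.017), limma (0.021 to 0.029) and the fit without shPRKCN 2 (0.031).

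The 3 chaperones that help assemble the base all passed the test, in opposite directions. Of all genes tested 54.2% passed it, and of the deeply counted ones 66.1%. PSMD10, also known as gankyrin, had 39.6, 37.8 and 36.7 CPM in the shNT libraries and 32.2, 33.5 and 28.9 CPM in the shPRKCN libraries. All shPRKCN libraries were lower, a log2 fold change of −0.27 ± 0.058 (SE, adjusted p = 5.7e-05). PSMD9 had 17.5, 19.9 and 19.9 CPM in the shNT libraries and 21.3, 21.7 and 23.1 CPM in the shPRKCN libraries, higher and without overlap, a log2 fold change of 0.20 ± 0.072 (SE, adjusted p = 0.013). AC069503.2 on the same strand shares 14.9% of the exonic bases of PSMD9. Of the 50-base words of PSMD9, 19.5% occur in other genes, so its value is uncertain. PSMD5 had 71.4, 65.2 and 64.2 CPM in the shNT libraries and 63.6, 61.7 and 60.4 CPM in the shPRKCN libraries, a log2 fold change of −0.11 ± 0.048 (SE, adjusted p = 0.039). The PSMD5 call held in 6 of 17 fits. With all libraries its adjusted p was 0.089 in DESeq2, 0.056 and 0.096 with upper-quartile and library-total scaling, 0.07 with no filter and 0.11 to 0.22 in limma, and with libraries left out it was 0.33 without shNT 1, 0.067 without shPRKCN 2 and 0.18 without shPRKCN 3. The PSMD9 call held in 14 of 17 fits, with an adjusted p of 0.13 without shNT 1 and 0.069 without shPRKCN 3, and of 0.053 in limma on log2(FPKM + 1).

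The chaperones of core assembly, PSMG1 to PSMG4, which pair up to build the α ring, showed 1 call among 4 genes, 25% against 54.2% of all genes tested. PSMG1 had 65.9, 58.3 and 59.7 CPM in the shNT libraries and 55.2, 61.6 and 58.5 CPM in the shPRKCN libraries, with overlap, a log2 fold change of −0.069 ± 0.05 (SE, adjusted p = 0.25). PSMG2 had 33.4, 32.7 and 35.7 CPM in the shNT libraries and 32.6, 33 and 32.7 CPM in the shPRKCN libraries, with overlap, and a log2 fold change of −0.051 ± 0.057 (SE, adjusted p = 0.47). CEP76 on the other strand shares 13.9% of the exonic bases of PSMG2 and changed by −0.46 ± 0.11 (SE) on the log2 scale. PSMG3 had 21.5, 20.6 and 19.9 CPM in the shNT libraries and 20.9, 18.5 and 18.3 CPM in the shPRKCN libraries, with overlap, a log2 fold change of −0.10 ± 0.073 (SE, adjusted p = 0.24). PSMG4 rose and had 14.2, 15 and 15.1 CPM in the shNT libraries and 17.5, 17.4 and 16.7 CPM in the shPRKCN libraries, the lowest counts of the family, without overlap, a log2 fold change of 0.22 ± 0.08 (SE, adjusted p = 0.017). Its call held in 12 of 17 fits, with an adjusted p of 0.074 without shNT 1 and 0.052 without shPRKCN 1, and of 0.057 to 0.11 in limma. SLC22A23 on the other strand shares 13.3% of the exonic bases of PSMG4 and itself rose from 2.22 to 4.46 CPM (log2 difference 1.01 ± 0.18, SE), and its part in the PSMG4 result was not tested.

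Levels per length differed far more between subunits than between groups, and each ring holds its subunits in equal numbers. FPKM, counts scaled by the gene length the authors used and by the library total, ran in shNT cells from 13.2 for PSMA5 to 128 for PSMA7 in the α ring and from 22.6 for PSMB5 to 347 for PSMB4 among PSMB1 to PSMB7. The highest and lowest subunits were the same in shPRKCN cells, at 14.4 and 127 FPKM in the α ring and 28.5 and 376 FPKM in the β ring. PSMB5 was thus the least abundant constitutive β subunit per length in both groups, and the ratio of the highest to the lowest went from 15.3 to 13.2 in the β ring and from 9.74 to 8.83 in the α ring. Among the immunosubunits PSMB10 was highest and PSMB9 lowest in both groups, at 85.4 and 38.8 FPKM in shNT and 82.3 and 38.8 FPKM in shPRKCN cells. The ATPases ran from 8.84 FPKM for PSMC1 to 81.1 FPKM for PSMC5 in shNT cells, where PSMC6, at 9.01 FPKM, lay next to PSMC1 within its spread. PSMG4 was lowest of all tested members at 1.35 FPKM in shNT and 1.59 FPKM in shPRKCN cells, but the gene length used for it, 10891 bases, is the longest of the family, and 1428 bases was used for PSMG3. An FPKM depends on that length, so comparisons between genes carry its uncertainty.

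**Figure D4:**
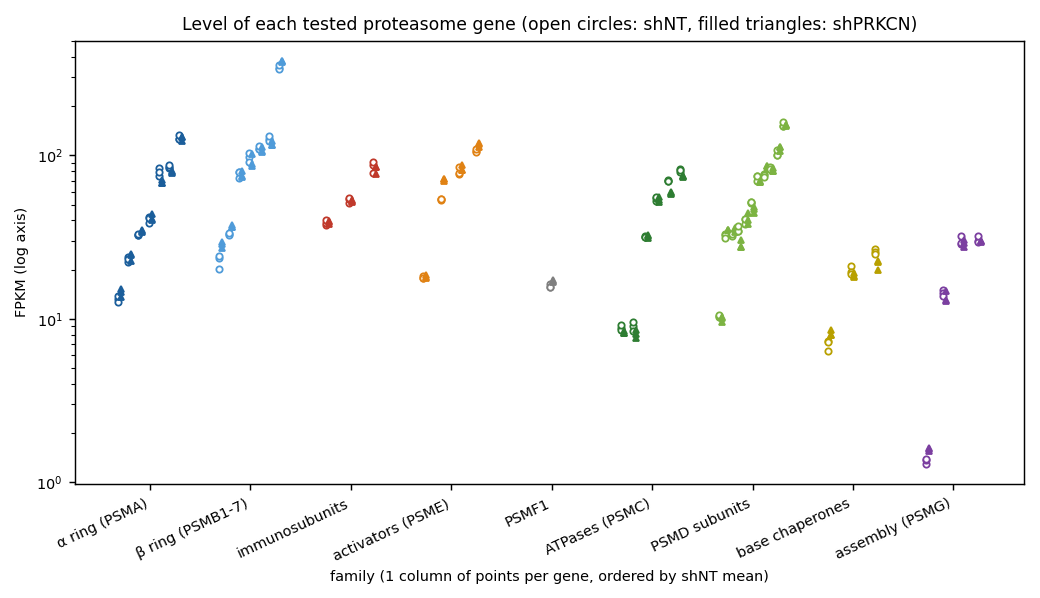
Each column of points is 1 tested gene, with FPKM in the 3 shNT libraries as open circles and in the 3 shPRKCN libraries as filled triangles, on a logarithmic vertical axis and grouped by subunit family. The β ring spans 22.6 to 347 FPKM in shNT cells, while the groups of 1 gene lie close together, as for PSMB4 at 347 and 376 FPKM.

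Genes of interferon-γ response and peptide loading, which work beside the immunoproteasome, included larger changes. Of 18 such genes, 11 rose and 3 fell. That is 77.8% against 54.2% of all genes tested (26.5% higher and 27.8% lower) and 66.1% of the deeply counted ones. The median log2 fold change was 0.25 against 0.0012 over all genes tested. TAPBP and JAK2 passed the fold limit, which 16.7% of all genes tested and 10.9% of the deeply counted ones passed. This list and those below were chosen with earlier results of these data known, so their shares are no test of the lists. TAPBP, the peptide-loading chaperone tapasin, had 458, 455 and 458 CPM in the shNT libraries and 701, 714 and 685 CPM in the shPRKCN libraries, a log2 fold change of 0.62 ± 0.033 (SE, adjusted p = 2.5e-26). JAK2, a kinase of the interferon-γ receptor, had 14.9, 14.9 and 15.8 CPM in the shNT libraries and 9, 8.28 and 8.82 CPM in the shPRKCN libraries, a log2 fold change of −0.81 ± 0.094 (SE, adjusted p = 2.3e-11). IRF1 and NLRC5, transcription factors of immunoproteasome and MHC class I genes, rose by log2 fold changes of 0.45 and 0.43. TAP1, a subunit of the peptide transporter, lies between PSMB8 and PSMB9 on chromosome 6 (32845209 to 32853704). TAP1 had 114, 117 and 113 CPM in the shNT libraries and 124, 136 and 128 CPM in the shPRKCN libraries, a log2 fold change of 0.18 ± 0.04 (SE, adjusted p = 0.00015), while PSMB9 did not pass the test. The log2 ratio of TAP1 to PSMB9 within a library, compared after seeing the data, rose by 0.19 on average and did not overlap (2-sided exact permutation test, p = 0.1, the smallest possible). TAP2, the other subunit, fell and had 143, 141 and 134 CPM in the shNT libraries and 129, 127 and 127 CPM in the shPRKCN libraries, a log2 fold change of −0.13 ± 0.039 (SE, adjusted p = 0.0039).

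**Figure D5:**
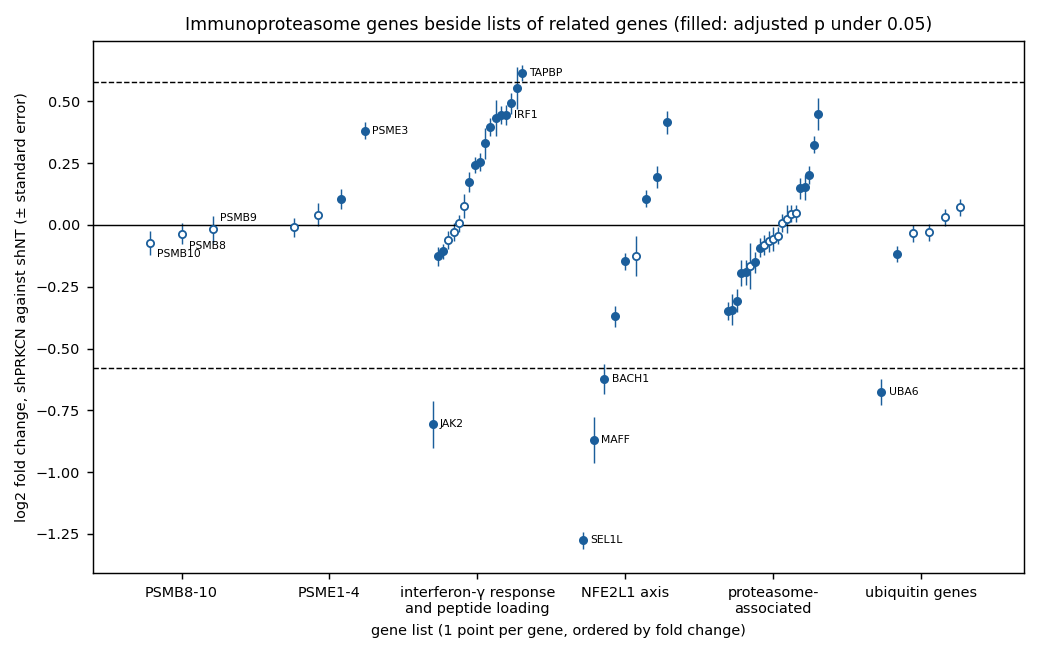
Points give log2 fold changes (shPRKCN against shNT) with standard errors for the immunosubunits, the activators and 4 lists of related genes; filled points had an adjusted p under 0.05 and dashed lines mark 0.58. The immunosubunits lie between −0.074 and −0.017, while the interferon-γ and peptide-loading genes run from −0.81 to 0.62.

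In the NFE2L1 axis, 3 of 9 genes rose and 5 fell, 88.9% against 54.2% of all genes tested and 66.1% of the deeply counted ones. Past the fold limit were 3, against 16.7% of all genes tested and 10.9% of the deeply counted ones. The list was chosen with earlier results of these data known, so these shares are no test of it. NFE2L1 itself had 281, 278 and 267 CPM in the shNT libraries and 239.6, 253 and 254 CPM in the shPRKCN libraries, all lower, a log2 fold change of −0.15 ± 0.035 (SE, adjusted p = 0.00028). DDI2, the protease that activates NFE2L1, rose by 0.19, and NGLY1, which removes its glycans, changed by −0.37 (adjusted p = 5.6e-12). SEL1L, the adaptor of the ER ubiquitin ligase that feeds proteins to the proteasome, had 472, 481 and 446 CPM in the shNT libraries and 190.3, 189 and 198 CPM in the shPRKCN libraries, a log2 fold change of −1.28 ± 0.035 (SE, adjusted p = 6.3e-42), the largest change in the 4 lists of related genes. BACH1, a repressor on the same DNA element, had 40.9, 44.5 and 37.3 CPM in the shNT libraries and 28.7, 26.2 and 24.8 CPM in the shPRKCN libraries, a log2 fold change of −0.62 ± 0.062 (SE, adjusted p = 6.4e-14). MAFF, a small MAF partner of these factors, had 17.8, 14.9 and 15.8 CPM in the shNT libraries and 8.62, 8.63 and 9.21 CPM in the shPRKCN libraries, a log2 fold change of −0.87 ± 0.094 (SE, adjusted p = 1.7e-12). MAFG, another such partner, rose. It had 54.8, 57.1 and 59.3 CPM in the shNT libraries and 77.8, 77 and 73.6 CPM in the shPRKCN libraries. Its log2 fold change was 0.42 ± 0.047 (SE, adjusted p = 6.3e-12).

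Of 21 proteasome-associated genes outside the naming rule, 5 rose and 7 fell, which at 57.1% is near the 54.2% of all genes tested and below the 66.1% of the deeply counted ones. In edgeR 0 passed the fold limit, with 12 at an unadjusted p under 0.05. UBQLN2, a shuttle factor, rose most, with 21.4, 22.1 and 23.6 CPM in the shNT libraries and 29.8, 30.8 and 31 CPM in the shPRKCN libraries and a log2 fold change of 0.45 ± 0.063 (SE, adjusted p = 7.6e-09), while its relative UBQLN1 fell most, with 200.2, 201 and 192 CPM in the shNT libraries and 155, 155 and 155 CPM in the shPRKCN libraries and a log2 fold change of −0.35 ± 0.037 (SE, adjusted p = 6e-13). SEM1 and ADRM1, which are cap subunits under other names, and POMP, the maturation factor of the core, did not pass the test (log2 fold changes of −0.057, −0.08 and 0.025). PAAF1 and UCHL5, which bind ATPases and the cap, fell by 0.34 and 0.31 on the log2 scale. Of 6 ubiquitin genes and activating enzymes, 2 fell and 0 rose at an adjusted p under 0.05, with 3 at an unadjusted p under 0.05, and the 33.3% called is below the 54.2% of all genes tested. UBA6, a ubiquitin-activating enzyme, had 60.2, 62 and 58.1 CPM in the shNT libraries and 39.6, 35.1 and 38 CPM in the shPRKCN libraries, a log2 fold change of −0.68 ± 0.052 (SE, adjusted p = 1.9e-18), and was the only one of the 6 past the fold limit.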

How the data were processed

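RNA from 6 MM.1S libraries, 3 shNT and 3 shPRKCN, was sequenced 3 days after infection. The authors deposited raw read counts per gene and FPKM values for 21850 genes; the submitters' processing notes name FastQC, HISAT2, StringTie and the genome build GRCh38.p14. Versions, the annotation, the counting program and the strand setting are not given in the sources used here. The deposited FPKM follow from the counts, the library totals and 1 gene length per gene, within 1 base for all 21850 genes.

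Groups were taken from the treatment labels. Counts were tested with edgeR 4.0.16 (quasi-likelihood test, TMM scaling, filterByExpr) in R 4.3.3, with Benjamini-Hochberg adjustment over the 13971 genes kept by the filter. The fold limit, 0.58 on the log2 scale, is that of the study's methods. Library totals ran from 35625564 to 37730003 counts, and CPM are scaled by TMM. Alternatives were DESeq2 1.42.0, other scalings, other low-count filters, a replicate block, each library left out in turn, and limma 3.58.1 on log2(FPKM + 1) or log2(FPKM + 0.1). Ratios of FPKM within libraries were compared with 2-sided exact permutation tests in Python 3.11.15. The count and limma steps were run on simulated counts with planted changes, in which every gene had the same dispersion. Recovery was required of edgeR and DESeq2 only, and the simulation did not copy the spread of each real gene.

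The members and lists were chosen with earlier results of these data known. Library values are given for the catalytic subunits, PSME1, PSME2, the 2 highest and 2 lowest members of each subgroup and, of the related lists, genes past the fold limit and the largest change in each direction. PSMC3, PSMC5, PSMD5, PSMD14, TAP1, TAP2 and NFE2L1 were added after their values were seen. Promoter windows came from RefSeq, gene coordinates from RefSeq and exon overlaps from the GENCODE annotation of GRCh38.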

Additional observations from a re-analysis of the deposited data

How the results depend on the processing

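In 16 alternatives to the test of 46 members, 0 passed the fold limit in any, and the number with an adjusted p under 0.05 ran from 16 to 23 against 22, with 16 to 20 when 1 library was left out. PRKD3 stayed between −1.31 and −1.25. Subgroup medians moved from −0.028 to 0.024 for the core, −0.019 to 0.011 for the immunoproteasome and activators, −0.071 to −0.047 for the cap and −0.085 to −0.037 for assembly, so the sign of the first 2 is not settled. Direction turned only for differences that did not pass the test. The PSMB10 to PSMB7 ratio difference ran from −0.065 to 0.030 with single libraries left out. Over the same omissions the log2 fold change ran from −0.015 to 0.048 for PSMA3, −0.030 to 0.063 for PSMD6, −0.0018 to 0.092 for PSME2, −0.043 to 0.011 for PSMB9, −0.013 to 0.00013 for PSMC2 and −0.019 to 0.0056 for PSME4. For PSMB9, PSMC2 and PSME4 it was 0.0026, 0.0098 and 0.0097 with library totals alone, 0.0033, 0.0093 and 0.0092 in limma on log2(FPKM + 1) with or without a minimum FPKM of 1, and 0.0034, 0.0096 and 0.0096 on log2(FPKM + 0.1); the cause was not tested. Same-numbered libraries did not deviate together (correlations of −0.059, −0.020 and −0.016), so no pairing by number was seen. With 3 libraries a group, this cannot show how the libraries were made. A replicate block gave 18 members with an adjusted p under 0.05 and 0 past the fold limit. With 3 libraries a group, a ratio cannot reach a permutation p under 0.1.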
